A study of Mus musculus with 10 samples.

Results

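Control-tagged and Blank-tagged cultures of the PyMt breast cancer cell line were compared gene by gene. Members were the 11150 genes, of 17171 in the deposited table, with an FPKM of at least 1 in at least 2 of the 4 libraries Blank-1, Blank-2, Control-1 and Control-2. FPKM scales fragments to transcript length and sequencing depth, so levels of different genes are per length. PyMt is a single mouse line that grew out of a mammary tumor driven by the polyoma middle T antigen under the MMTV promoter. The cells were grown on low-adherence plastic in RPMI medium with serum and insulin, or in supernatants of CD4+ T cells with insulin. The T cells had been sorted from tumors and draining lymph nodes and stimulated with anti-CD3, anti-CD28 and TSLP. In the other 6 libraries of the series (Test1, Test2 and Test3, 2 each) the T cells came from Tslp transgenic mice, with the transgene K14-Tslp driven by a keratin promoter. The titles of all 4 libraries compared here give control T cell supernatant, for which the labels name Tslp-PyMt mice without the TSLP receptor (TslprKO) and PyMt mice, and the study's methods name TslprKO mice. The tag Blank is not explained, and the growth notes also name plain medium as a condition. Which T cell donor or medium separates the tags, and whether a culture or processing batch does, cannot be told apart. No source says whether the 2 libraries of a tag are separate cultures. The p-values rest on the spread between libraries of the same tag, shared over Blank, Control, Test1, Test2 and Test3. They therefore reflect only how far such libraries vary, possibly for technical reasons.

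Interferon gamma, made by activated T cells and NK cells, binds a receptor of the chains IFNGR1 and IFNGR2, whose Janus kinases activate transcription factors that bind gamma-activated sites in promoters. IRF1, an early product of this step, binds interferon-stimulated response elements in a later wave of genes. In epithelial cells the pathway is known for guanylate-binding proteins and immunity-related GTPases, which attack vacuoles of intracellular pathogens, for antigen presentation on MHC class I and for chemokines that draw T cells.

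The 4 libraries were close in size. FPKM summed to 414783 and 416680 in Blank and to 425896 and 425808 in Control, 14377 to 14925 genes were above 0, and the steps between low values put the libraries at an estimated 13 to 13.6 M reads. Over the tested genes the SD of the log2 difference was 0.251 between the Blank libraries, 0.357 between the Control libraries, and 0.480 to 0.562 between a library of each tag. The cells carried luminal keratins and mesenchymal genes together, with Krt18 at 807 and 754 FPKM in Blank and Vim at 1659 and 1627. The basal keratin Krt5 was listed at 0 in both Blank libraries, but basal markers were not absent as a set. The 8 basal epithelial markers listed summed to an FPKM of 16.82 and 14.31 in Blank, and 2 of them passed the filter. Of 14 pan-leukocyte and macrophage markers 8 had a row, none passed the filter, and their summed FPKM was 0.90 and 1.86 in Blank and 0.61 and 0.41 in Control, with Aif1 at 0 in all 4 libraries. Of 24 T cell markers 9 had a row and 3 passed the filter, and none of the 3 was called, with 0 below an unadjusted p of 0.05 (limma). The 9 summed to an FPKM of 66.4 and 69.7 in Blank and 56.9 and 59.8 in Control, and of this Gata3, also a luminal factor, made up 56.9 and 60.6 in Blank and 47.6 and 48.5 in Control. Cd3d, a chain of the T cell receptor complex, was at 0.98 and 2.03 in Blank and 2.21 and 4.87 in Control. The part of T cell RNA in the results was not tested.

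Differences were tested with limma on log2(FPKM + 1) with Benjamini-Hochberg adjustment over the 11150 genes, and a gene was called at an adjusted p under 0.05. For low genes the added 1 makes differences look smaller than they are. In Control-tagged cells 509 genes rose (4.57% of those tested) and 166 fell (1.49%). By at least 1 on the log2 scale, 288 rose (2.58%) and 26 fell (0.233%), and by at least 2, 94 rose and 1 fell. The median difference of all tested genes was -0.03. In all 675 calls the libraries of both tags did not overlap, which without a call threshold held for 22.9% of tested genes with Control above and for 31.3% with Control below. Of the genes tested, 110 passed the filter only through the Control libraries, and 54 of these were called higher. Some of them are in the gene lists below and add to the counts of rises. Another 81 passed only through the Blank libraries, and 13 of these were called lower. The genes that rose held 2.43% of all FPKM in Blank and 6.83% in Control, and those that fell held 1.44% and 0.86%. Leaving out a library leaves 1 library of its tag, so a call can be lost with the difference nearly unchanged. The number of calls rested on all 4 libraries: without Blank-1 308 genes were called higher and 30 lower, without Blank-2 303 and 30, without Control-1 324 and 53, and without Control-2 456 and 148.

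**Figure D1:**
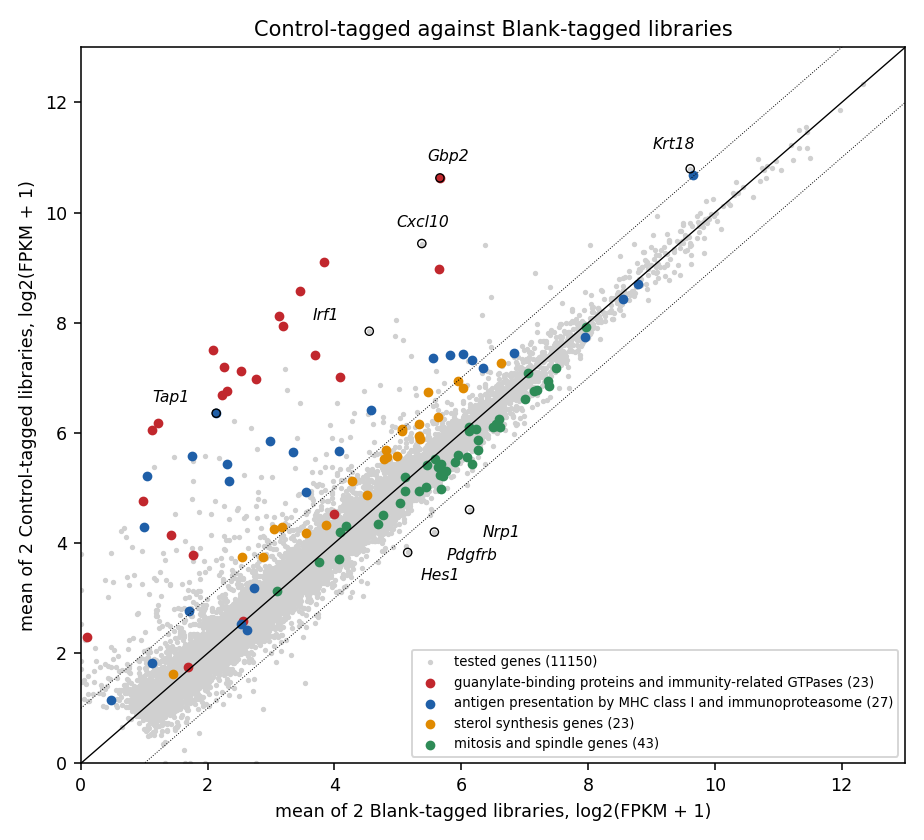
Mean of the 2 Blank-tagged libraries (x axis) against the mean of the 2 Control-tagged libraries (y axis), both as log2(FPKM + 1), for the 11150 tested genes in grey and 4 gene groups in color, with equality as a solid line and a difference of 1 as dotted lines. Guanylate-binding proteins and immunity-related GTPases lie farthest above the line, while Nrp1, Pdgfrb and Hes1 are among the few abundant genes below the lower dotted line.

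The largest rises were those of 10 interferon-inducible GTPase genes. Tgtp2, a T cell-specific GTPase by name, was at 2.59 and 3.90 FPKM in Blank and at 169.7 and 191 in Control, a difference of 5.43 ± 0.16 (SE) on the log2 scale (adjusted p = 1.47e-08, limma). Iigp1 was at 12.7 and 13.9 in Blank and at 489 and 613 in Control (5.26 ± 0.15), and Igtp at 8.21 and 11.8 against 396 and 368 (5.14 ± 0.18). For each of these genes the lowest Control library lay more than 10 times above the highest Blank library. Gbp2 was the most abundant of its family, at 46.5 and 52.9 FPKM in Blank and 1518 and 1648 in Control (4.97 ± 0.14). Tgtp1, Gbp10, Gbp4, Gm12250, Gbp6 and Gbp7 completed the 10, with differences of 4.59 to 5.01. Tgtp1 and Tgtp2 are near-identical copies, as are Gbp6 and Gbp10, and how shared fragments were divided between them is not known.

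All 9 tested guanylate-binding protein genes (of 11 listed) rose, with a median difference of 4.59, and 11 of 14 tested immunity-related GTPase genes rose, with a median of 3.76. Irgm1, a regulator of the other GTPases, was already at 48.8 and 49.5 FPKM in Blank and reached 499 and 505 in Control. Irgm2 went from 4.01 and 3.39 to 103.6 and 101.5 (4.46 ± 0.12). Gbp5, known for its part in inflammasome activation, rose least among the named members, from 2.34 and 2.45 to 11.9 and 13.6 (2.02 ± 0.12). In none of these genes did the libraries of the tags approach each other. The counts of both families, 9 and 11, were the same without any 1 of the 4 libraries. In the test sets Gbp2 had a mean of 1837, 2177 and 1968 FPKM and Iigp1 of 592, 601 and 607 in Test1, Test2 and Test3, while Gbp5 had 19.8, 20.6 and 78.0.

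The promoters of several of these GTPases hold both kinds of interferon element side by side, and 5 of them are shown because their letters are nearly the same. They are RefSeq sequences of GRCm38.p6, read 5′ to 3′ on the strand of the gene, with matches to TTCNNNGAA (gamma-activated site, its own reverse complement) and GAAA, 2 bases of any kind and GAAA (core of the interferon-stimulated response element, on either strand) in capitals.
Tgtp1, chr11:48992304-48992344, minus strand: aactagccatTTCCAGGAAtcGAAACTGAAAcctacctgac
Tgtp2, chr11:49064263-49064303, minus strand: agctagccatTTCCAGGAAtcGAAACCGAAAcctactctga
Gm12185, chr11:48927238-48927278, minus strand: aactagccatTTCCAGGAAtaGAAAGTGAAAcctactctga
Igtp, chr11:58199501-58199541, plus strand: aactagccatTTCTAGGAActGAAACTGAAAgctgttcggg
Irgm2, chr11:58214892-58214932, plus strand: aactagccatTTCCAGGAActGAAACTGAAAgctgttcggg
In guanylate-binding protein genes of chromosome 3 the response element core lay on the opposite strand, reading TTTC, 2 bases and TTTC, with its first base at -59 from the start site in Gbp2, -53 in Gbp7 and -45 and -39 in Gbp3.
Gbp2, chr3:142620594-142620623, plus strand: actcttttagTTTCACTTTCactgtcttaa
Gbp3, chr3:142559989-142560024, plus strand: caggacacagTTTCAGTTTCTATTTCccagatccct
Gbp7, chr3:142530220-142530302, plus strand: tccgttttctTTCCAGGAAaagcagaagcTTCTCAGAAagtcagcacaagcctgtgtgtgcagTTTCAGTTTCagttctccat
Gbp3 carries 2 overlapping response element matches, and Gbp7 has 2 gamma-activated site matches upstream of its response element.

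Over all genes, windows of 250 bases before to 50 after the start site were searched. RefSeq windows matched 8908 of the 11150 tested genes, 378 of the 509 that rose and 122 of the 166 that fell. The response element core was present in 3.44% of all 32851 windows and in 2.99% of those of tested genes. It was present in 14.6% of the windows of genes that rose, in 33.3% for genes that rose by at least 2, and in 2.37% of the windows of genes that fell. The gamma-activated site letters were in 8.30% of all windows, 6.85% for tested genes, 12% for genes that rose, 27.5% for those that rose by at least 2 and 5.92% for those that fell. With only the 250 bases before the start site, the shares for genes that rose were 12% and 10.0%. A match describes the letters of a window and does not show that a factor is bound there.

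**Figure D2:**
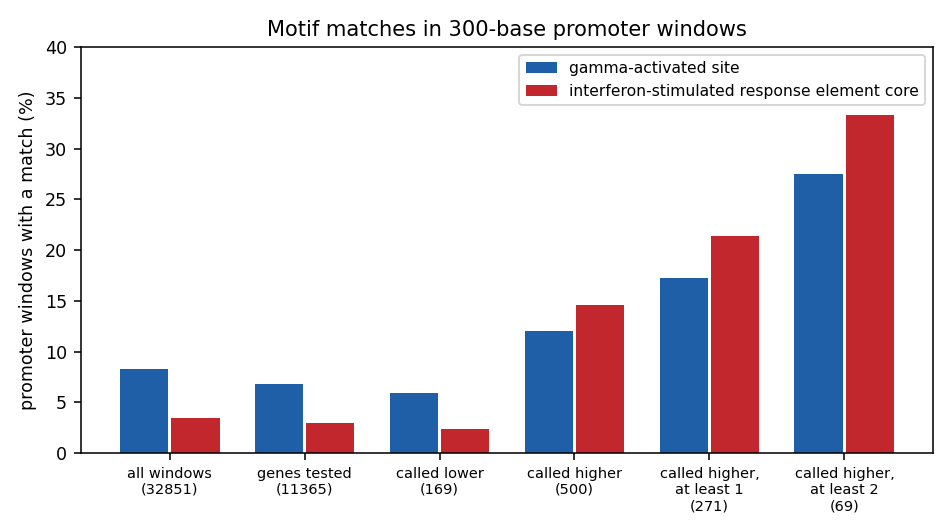
Percent of 300-base RefSeq promoter windows (y axis) with at least 1 match to the gamma-activated site (blue) or the interferon-stimulated response element core (red), by gene group, with the number of windows in parentheses. Windows of genes that rose by at least 2 on the log2 scale hold a response element core in 33.3% and a gamma-activated site in 27.5%. Those of genes that fell hold them in 2.37% and 5.92% (4 and 10 of 169 windows), near the 2.99% and 6.85% for tested genes.

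Genes of the signaling chain changed in part. Stat2, a factor of the response to type I interferon, rose from 3.36 and 3.31 FPKM to 28 and 24.4, and Stat3, which serves cytokines of the interleukin 6 family, from 22.5 and 24.4 to 74.2 and 66.8. Stat6, the factor of interleukin 4 and interleukin 13 signaling, was not called (35.4 and 34.3 against 38.3 and 30.6). Among the receptor chains, Ifngr2 and Ifnar2 were called higher, while Ifngr1 and Ifnar1 were not called. Ifngr2 rose from 32.2 and 31.1 to 57 and 56.2 (0.82 ± 0.11), while Ifngr1 was at 20.3 and 14.3 in Blank and 15.5 and 17.7 in Control, overlapping values with a 95% interval of the difference from -0.44 to 0.37. Ifnar2, a chain of the type I interferon receptor, rose by 0.79 ± 0.13 (adjusted p = 0.00463), which did not hold when Blank-2 was left out (adjusted p = 0.0832), and Ifnar1 differed by 0.04 ± 0.11, with no call.

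Of 7 tested interferon regulatory factors 6 rose, with a median of 1.87. Irf1, an early target of interferon gamma, was at 22.4 FPKM in both Blank libraries and at 228 and 229.7 in Control (3.30 ± 0.10, adjusted p = 2.23e-08). Irf8, best known from myeloid cells, rose from 2.65 and 3.15 to 47.3 and 45.8 (3.61 ± 0.11). Irf9, the DNA-binding subunit of the type I interferon complex, and Irf7, which drives interferon alpha genes, rose by 1.87 and 1.9. Each was separated between the tags by a gap wider than the range within a tag. A second Irf1 promoter window, farther downstream, holds no match of either kind. The first is shown whole because it holds a single gamma-activated site match, and no response element core, in front of the gene.
Irf1, chr11:53769764-53770063, plus strand: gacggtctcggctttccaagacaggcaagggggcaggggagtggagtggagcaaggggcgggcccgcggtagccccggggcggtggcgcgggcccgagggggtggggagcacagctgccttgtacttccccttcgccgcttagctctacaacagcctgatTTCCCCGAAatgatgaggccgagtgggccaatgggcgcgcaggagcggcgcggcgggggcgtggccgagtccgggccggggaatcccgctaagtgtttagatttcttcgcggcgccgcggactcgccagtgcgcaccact

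Of 17 listed inhibitors of interferon signaling 4 rose and 1 fell. Socs1, which blocks Janus kinases, was at 1.96 and 2.88 FPKM in Blank and at 56.6 and 31.4 in Control (3.67 ± 0.37). Cish rose from 2.37 in both Blank libraries to 16.7 and 11.2, and Socs3 from 6.27 and 5.61 to 31.6 and 22.3. In all 3 genes Control-1 was above Control-2, and both were well above Blank. Socs2, a brake on growth hormone signaling, fell from 12.6 and 13.3 to 6.57 and 7.51 (-0.79 ± 0.16, adjusted p = 0.0151), and its call was lost without Blank-1, Blank-2 or Control-1 (highest adjusted p = 0.145). The Socs1 window is shown for its 2 overlapping response element matches.
Socs1, chr16:10785487-10785786, minus strand: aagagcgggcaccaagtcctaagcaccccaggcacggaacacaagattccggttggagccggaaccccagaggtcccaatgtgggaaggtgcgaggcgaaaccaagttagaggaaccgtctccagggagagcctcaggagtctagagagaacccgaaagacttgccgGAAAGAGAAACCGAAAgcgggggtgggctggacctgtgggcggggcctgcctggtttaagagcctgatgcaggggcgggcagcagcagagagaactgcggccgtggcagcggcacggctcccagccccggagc

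Genes of antigen presentation on MHC class I rose, from peptide cutting to the surface molecules. All 6 genes of the immunoproteasome and its activator rose. Psmb9 was at 1.25 and 0.87 FPKM in Blank and 41.4 and 31.0 in Control (4.17 ± 0.17), Psmb8 at 2.37 in both Blank libraries and 50 and 43.3 in Control (3.82 ± 0.20), and Psmb10 at 6.97 and 6.90 against 69.0 and 43.9. The activator subunits Psme1 and Psme2 rose by 1.4 and 1.59. Of the 14 genes of the constitutive core none was called, with 0 below an unadjusted p of 0.05 (limma) and a median of 0.16. Tap1, a subunit of the peptide transporter, rose from 2.74 and 4.04 to 89.4 and 72.5 (4.23 ± 0.18) and Tap2 from 3.84 and 4.01 to 44.5 and 40.4 (3.14 ± 0.12). The promoter window of Tap1 held no match to either interferon element. The loading factors Tapbp and Tapbpl rose by 1.81 and 2.78, while the general chaperones of the list were not called.

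Of 13 tested MHC class I genes 9 rose. B2m, the invariant light chain, was at 789 and 815 FPKM in Blank and 1602 and 1667 in Control, and H2-K1 at 74.1 and 68.0 against 166.6 and 151. Nonclassical H2-T23 rose more, from 9.43 and 8.79 to 50 and 48.4 (2.31 ± 0.12). Nlrc5, the transactivator of class I genes, was at 0.91 and 1.09 and rose to 21.6 and 15.6 (3.27 ± 0.18). The call of B2m did not hold without Blank-1 or without Blank-2, nor that of H2-D1, which was also lost without Control-1. Without 1 library at a time the B2m difference stayed at 1.00 to 1.05 and that of H2-D1 at 0.73 to 0.95. Class I genes share long stretches of sequence, so the division of fragments among them is uncertain.

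MHC class II genes stayed near 0. Ciita, the class II transactivator, was at 0.04 and 0.06 FPKM in Blank and 4.04 and 3.37 in Control (2.16 ± 0.21, adjusted p = 9.79e-05), and passed the filter only through the Control libraries. Its gene model overlaps that of Dexi, which also rose, from a mean of 2.89 to 10.2. Cd74, the invariant chain, was listed at 0 and 0.06 in Blank and at 1.62 and 2.09 in Control, likewise passed the filter only through Control, and lost its call without Blank-1 (adjusted p = 0.0593). H2-Aa was listed at 0 in both Blank libraries and at 0.29 and 0 in Control, and no structural class II gene passed the filter. In the test sets Ciita had means of 0.73 to 2.06 FPKM, below both Control libraries.

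**Figure D3:**
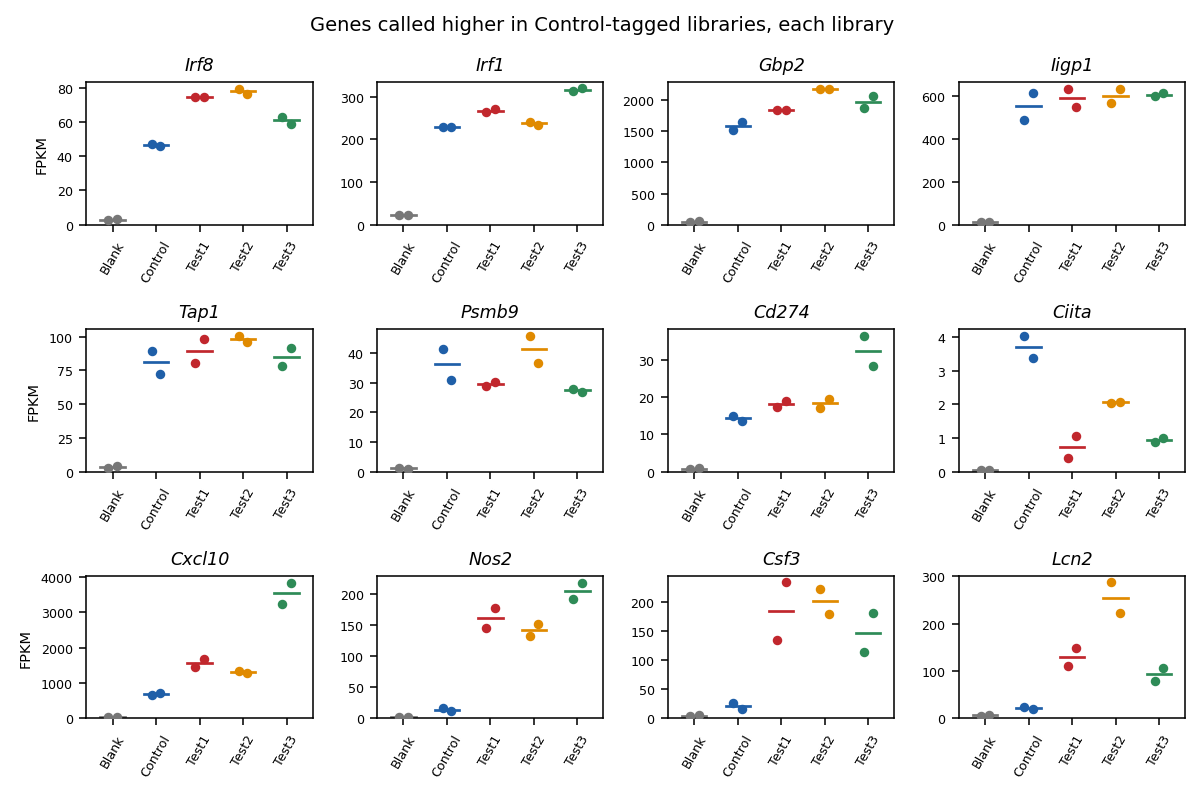
FPKM (y axis, from 0) of 12 genes that rose, in each library of the 5 label sets, with 1 point per library and a line at the mean of 2. Irf1, Gbp2, Iigp1, Tap1 and Psmb9 stand at similar levels in Control and in the test sets, Ciita is highest in Control, and Nos2, Csf3 and Lcn2 are at 12.1 to 26.5 FPKM in Control and far higher in the test sets.

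Antiviral interferon-stimulated genes rose unevenly. Of 53 tested (62 listed) 38 rose and none fell, with a median of 1.26. Apol6 went from 1.22 FPKM in both Blank libraries to 44.7 and 36.8 (4.23 ± 0.13), Zbp1, a sensor of Z-form nucleic acid, from 3.79 and 4.82 to 70.4 and 76.0, and Samhd1, which degrades deoxynucleotides, from 31.3 and 29.0 to 206 and 225. The interferon-linked ubiquitin-like gene Isg15 rose less, from 5.34 and 7.06 to 18.4 and 18.2 (1.43 ± 0.16). Of genes known for strong induction by type I interferon, Oasl2 rose from 4.97 and 4.99 to 37.9 and 35.1 (2.65 ± 0.11) and Bst2, which tethers virus particles, from 18.6 and 19.1 to 90.2 and 72.4 (2.04 ± 0.21). Ifit3 rose from 2.55 and 2.49 to 6.48 and 8.44, a call lost without any 1 library (adjusted p up to 0.184). Ifit1, Ifit2, Rsad2 and Oasl1 were not called, with Ifit1 at 4.78 and 5.57 FPKM in Blank and 4.98 and 6.58 in Control. Mx1 and Mx2 did not pass the filter, at 0.53 FPKM or below in all 4 libraries. Ifit2, Rsad2, Oasl1, Mx1 and Mx2 were chosen after their values were seen. Without Blank-1 the count of rises was 29, without Blank-2 or Control-1 31, and without Control-2 36.

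Of 9 tested p200 family genes, DNA sensors encoded side by side on chromosome 1, 8 rose. Ifi203 was at 9.65 and 10.2 FPKM in Blank and 81.9 and 102 in Control (3.08 ± 0.15), Ifi205 at 1.96 and 2.76 against 20.3 and 33.3, and Mnda (Ifi211 in RefSeq) at 77.3 and 81.2 against 229.9 and 336. In Ifi203, Ifi205 and Mnda Control-2 was above Control-1 and both were above Blank. AI607873, also among the 8, passed the filter only through the Control libraries (0.66 FPKM in both Blank libraries, 10.2 and 8.64 in Control). The genes are close relatives, so fragments may be divided among them, and 3 of their promoters are shown because the same response element core recurs in nearly the same context.
Ifi203, chr1:173942508-173942537, minus strand: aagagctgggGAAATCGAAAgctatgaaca
Mndal, chr1:173880204-173880233, minus strand: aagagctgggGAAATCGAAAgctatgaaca
Mnda, chr1:173913064-173913093, minus strand: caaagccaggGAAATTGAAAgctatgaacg
Of 9 windows of the p200 genes that rose, 7 (77.8%) held the response element core and 0 the gamma-activated site letters. Slfn2, a Schlafen gene tied to lymphocyte quiescence, rose from 0.45 and 0.40 to 8.37 and 9.23 (2.78 ± 0.16), having passed the filter only through the Control libraries.

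Both tested CXCR3 ligand genes rose, and of 9 other tested chemokine genes 4 rose and none fell, with a median of 0.53. Cxcl10, a CXCR3 ligand, was at 38 and 43.1 FPKM in Blank and 664 and 721 in Control (4.06 ± 0.15), and Cxcl9 at 2.90 and 4.12 against 37.2 and 54.6 (3.37 ± 0.18). Ccl2, which attracts monocytes, rose from 13 and 18 to 103 and 81.3 (2.51 ± 0.27) and Ccl7 from 0.85 and 1.61 to 9.08 and 9.44. Cx3cl1 and Cxcl16, which are made as membrane-bound forms, rose by 1.81 and 1.6. Ccl5 was not called (15.4 and 18 against 22.3 and 26.9), although both Control libraries were above both Blank libraries. The test sets stood higher than Control for Cxcl10 (means of 1558, 1309 and 3524) and Ccl2 (569, 440.4 and 776). The Cxcl10 window is shown for its response element core, whose first base lies at -213 from the start site.
Cxcl10, chr5:92348840-92349139, minus strand: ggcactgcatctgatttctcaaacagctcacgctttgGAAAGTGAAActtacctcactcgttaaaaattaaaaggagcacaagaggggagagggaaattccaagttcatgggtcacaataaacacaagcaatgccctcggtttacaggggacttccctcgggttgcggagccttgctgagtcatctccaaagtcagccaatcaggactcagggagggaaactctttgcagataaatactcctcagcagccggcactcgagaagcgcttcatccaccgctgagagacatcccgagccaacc

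Genes of NF-kB signaling, which TNF and interleukin 1 activate, changed in part. Of 15 subunits and inhibitors 5 rose, among them Nfkb1, the precursor of p50, from 39.0 and 36.1 FPKM to 117 and 106 (1.54 ± 0.12), Nfkbiz, an atypical inhibitor protein, from 6.05 and 5.76 to 31.2 and 27.6 (2.14 ± 0.16), and Bcl3, from 1.4 and 1.36 to 13.3 and 6.89 (2.16 ± 0.27). Nfkbid, also among the 5, passed the filter only through the Control libraries (0.08 FPKM in both Blank libraries, 1.03 and 1.74 in Control). The fast feedback genes were not called: Nfkbia differed by 0.46 ± 0.13 (adjusted p = 0.0708) and Tnfaip3 by 0.25 ± 0.12. Of 23 tested TNF and NF-kB response genes 7 rose, with a median of 0.53, and this count fell to 3 without Blank-1 or Control-1 and to 5 without Blank-2. Sod2, the mitochondrial superoxide dismutase, was the steadiest of them, at 11.3 and 10.1 against 22.5 and 22.6 (1.01 ± 0.12). Tnfrsf1a, the main TNF receptor, rose from 29.8 and 30.2 to 78.8 and 57.5 (1.14 ± 0.19).

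Some cytokine and enzyme genes rose in Control and were far higher in the test sets. Nos2, the inducible nitric oxide synthase, was at 2.47 and 2.92 FPKM in Blank, 16.1 and 12.1 in Control (2.02 ± 0.17, adjusted p = 2.93e-05) and at means of 162, 142 and 205 in the test sets. Csf3, the granulocyte growth factor, was at 5.03 and 5.13, then 26.5 and 16.7 (1.86 ± 0.30), against 184, 201 and 147 in the test sets. Lcn2, an iron-binding acute-phase protein, was at 6.17 and 6.89, then 23.6 and 19.2 (1.57 ± 0.20), against 130, 255 and 93.3. In each of the 3 genes the tags did not overlap, as in every gene called, and the Control libraries lay nearer to Blank than to any test set. Il6 did not pass the filter, at 0.85 and 0.99 FPKM in Blank and 0.36 and 0.52 in Control, and was at 18 to 61.5 in the 6 test libraries. Lif, of the same cytokine family, rose from 15.2 and 15.9 to 58.0 and 44.8 (1.65 ± 0.16).

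Some genes tied to other cytokines, including receptors, also rose. Il13ra2, a decoy receptor for interleukin 13, rose from 0.93 and 0.63 FPKM to 9.21 and 10.2 (2.59 ± 0.15, tested only through its level in Control), Il13ra1 from 10.3 and 9.23 to 25.6 and 30.7, and Tgm2, a transglutaminase that interleukin 4 induces in several cell types, from 27.0 and 25.1 to 84.0 and 70.6. Il4ra was not called (0.39 ± 0.19). Il15ra, which presents interleukin 15 to lymphocytes, rose from 0.45 and 0.23 to 7.67 and 6.56 (2.60 ± 0.15) and also passed the filter only through Control. Il1rl1, the receptor of interleukin 33, rose from 3.85 and 2.94 to 11.8 and 11.9, and Il18bp, a secreted inhibitor of interleukin 18, from 0.53 and 1.39 to 16.9 and 9.96 (2.87 ± 0.32). Their own ligands Il33 and Il18 were not called, with differences of -0.70 ± 0.20 and -0.39 ± 0.20.

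Of 11 tested immune checkpoint ligands 4 rose. Cd274 (PD-L1) was at 0.62 and 0.88 FPKM in Blank and 14.9 and 13.6 in Control (3.13 ± 0.16, adjusted p = 6.51e-07), and passed the filter only through the Control libraries. Tnfrsf14, also among the 4, did so too, at 0.17 and 0 FPKM in Blank and 2.01 and 2.0 in Control. Pdcd1lg2 was listed at 0 in all 4 libraries. Cd47, which inhibits phagocytosis, rose by 0.75 ± 0.12 and Pvr, a ligand of TIGIT, by 0.68 ± 0.12, calls that were lost without Blank-2 and Blank-1, respectively (adjusted p = 0.0548 and 0.0996).

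Wars, the tryptophanyl-tRNA synthetase, rose from 31.9 and 34.1 FPKM to 222 and 188 (2.60 ± 0.12), and Slc7a2, a carrier of cationic amino acids, from 2.27 and 1.78 to 8.58 and 8.53 (1.66 ± 0.18). Ido1 did not pass the filter, at 0.05 and 0 against 0.94 and 0.82. Complement genes C3, C1ra and C1s rose by 1.99, 2.09 and 2.48, with C3 at 1.09 and 1.13 FPKM in Blank and 7.67 and 7.15 in Control, whereas Cfb was at 0.11 or below in all 4 libraries. Serpina3f and Serpina3g, protease inhibitors of 1 cluster of close relatives, rose from 1.29 and 2.27 to 49.0 and 43.2 and from 2.02 and 2.61 to 49.8 and 44.3.

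Of 17 tested genes of apoptosis and lytic cell death 7 rose, and the count was 7 without any 1 library. Casp1, the inflammasome protease, was at 2.92 and 2.37 FPKM in Blank and 18.2 and 26.9 in Control (2.67 ± 0.19), Casp4, its relative that senses lipopolysaccharide, at 1.11 and 1.91 against 10.0 and 14, and Casp12 at 5.19 and 6.34 against 21.8 and 27.5. These 3 neighbors on chromosome 9 were all higher in Control-2 than in Control-1. Gsdmd, the pore protein cut by caspase 1, rose by 1.26 ± 0.14, Mlkl, the pore protein of necroptosis, by 1.01 ± 0.15 and Tnfsf10 (TRAIL) by 1.78 ± 0.15. Casp8 was not called (23.7 and 25.9 against 19.3 and 24). Among BCL2 family genes Bak1, a pore former of mitochondria, rose from 49.3 and 47.7 to 121 and 94.5, and Mcl1 was not called (0.11 ± 0.10).

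**Figure D4:**
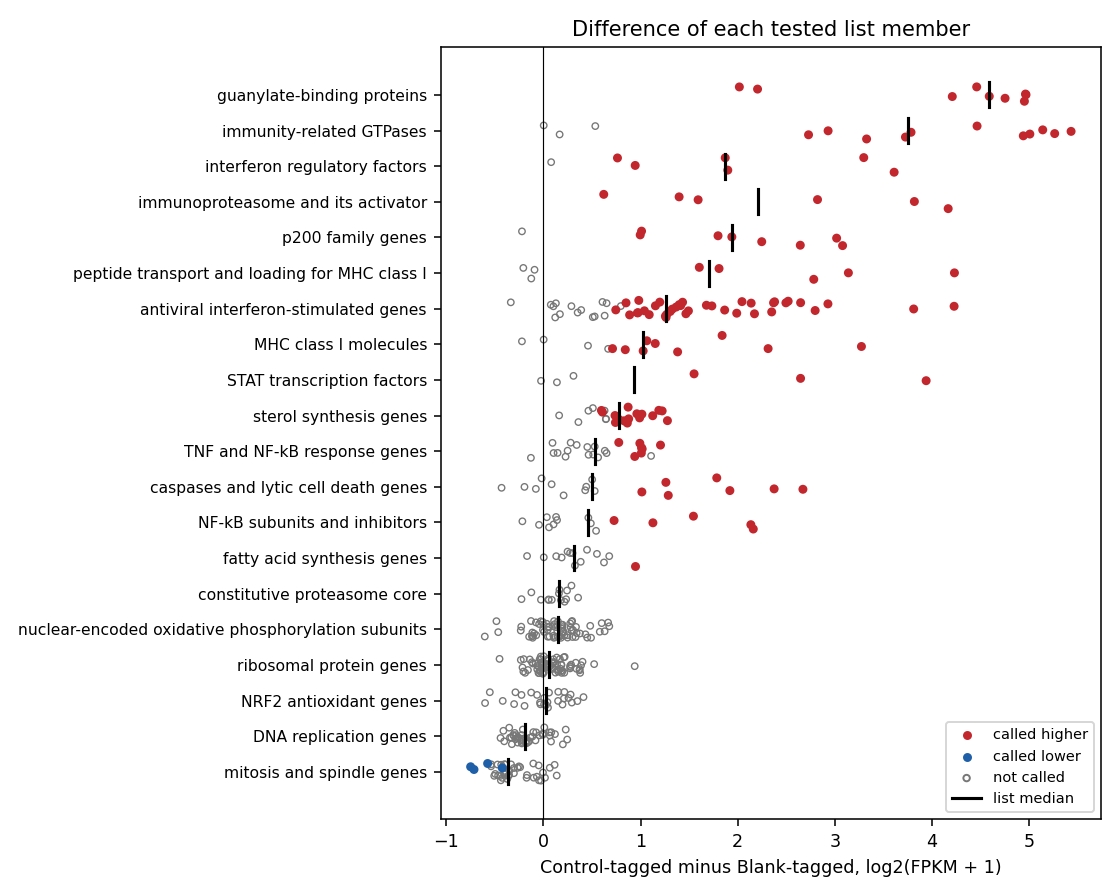
Control-tagged minus Blank-tagged difference on the log2(FPKM + 1) scale (x axis) of every tested member of 20 gene lists, with filled points for called genes, open points for the others and a bar at the list median. Interferon-linked lists lie to the right, with a median of 4.59 for the guanylate-binding proteins, sterol synthesis genes lie above 0 throughout with a median of 0.78, and 39 of 43 mitosis genes lie left of 0 with a median of -0.36.

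Sterol synthesis genes rose together by small amounts. Of 23 tested 16 rose, all 23 had a difference above 0, and the median was 0.78. In 22 of the 23 both Control libraries were above both Blank libraries, against 22.9% of all tested genes. Sc4mol (Msmo1 in RefSeq), a sterol demethylase, was at 43.7 and 43.0 FPKM in Blank and 103.1 and 109.8 in Control (1.28 ± 0.11, adjusted p = 4.12e-05). Hmgcs1, at the entry of the pathway, was at 60.6 and 61.2 against 111 and 133 (0.99 ± 0.13), Lss, which closes the ring, at 7.45 and 6.99 against 19.1 and 17.3, and Sqle at 66.4 and 62.3 against 107 and 115. The count of rises was 12, 9, 11 and 16 without Blank-1, Blank-2, Control-1 and Control-2. Of 14 tested fatty acid synthesis genes only Lpin1 was called higher, and its call did not hold without Blank-1, Control-1 or Control-2. Without 1 library at a time its difference stayed at 0.69 to 1.18. Fasn was not called (0.68 ± 0.23). In this list 13 of the 14 had a difference above 0, with a median of 0.31. In 10 both Control libraries were above both Blank libraries (22.9% of all tested genes). At an unadjusted p under 0.05 (limma) 8 were higher, against 9.39% of all tested genes. In Test3 Hmgcs1 had a mean of 30.0 FPKM, below Blank, and in Test1 and Test2 means of 124 and 149.

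Cell cycle genes differed slightly in the other direction. Of 43 mitosis and spindle genes none rose and 4 fell, Ckap2, Ndc80, Kif23 and Kif20a, with a median of -0.36 over the list. In 31 of the 43 both Control libraries were below both Blank libraries, against 31.3% of all tested genes, and 25 had an unadjusted p under 0.05 with a negative difference, which held for 9.43% of all tested genes. Ckap2, a spindle protein, was at 71.3 and 69.9 FPKM in Blank and 35.8 and 48.3 in Control (-0.75 ± 0.15, adjusted p = 0.0156). None of the 4 was called without Blank-1, Blank-2 or Control-1 (Ckap2 up to an adjusted p of 0.127), and Kif20a was not called without Control-2 either. Mki67, the proliferation marker Ki67, was at 166.4 and 165 in Blank and 111 and 117 in Control, without overlap, and was not called (-0.54 ± 0.18, adjusted p = 0.135). Of 43 DNA replication genes none was called by limma, with a median of -0.19 and 9 below an unadjusted p of 0.05, all with a negative difference, beside the same 9.43% of all tested genes. Pcna was at 208 and 220 against 174 and 182.2 (-0.26 ± 0.12). Among 23 p53 target genes only Btg2 was called (0.68 ± 0.15, adjusted p = 0.0291), a call lost without any 1 library (adjusted p up to 0.278), and Cdkn1a was not (38.5 and 45.2 against 34.8 and 40.2). In bulk RNA, fewer dividing cells and less RNA per cell cannot be told apart.

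Of the 166 genes that fell 19 were in one of the lists, as were 224 of the 509 that rose, and the lists were chosen with earlier results known. Nrp1, a coreceptor of semaphorins and VEGF, was at 69.6 and 68.5 FPKM in Blank and 20.2 and 26.6 in Control (-1.54 ± 0.18, adjusted p = 0.000555). Pdgfrb, the beta receptor for PDGF and typical of mesenchymal cells, was at 47.5 and 45.9 against 17.9 and 16.9 (-1.38 ± 0.16). Hes1, a repressor induced by Notch, was at 35.5 and 33.7 against 14.1 and 12.4 (-1.33 ± 0.19). These 3 genes kept their calls without any 1 library, and their Control levels lay between Blank and the test sets, where Pdgfrb had means of 5.45 to 9.83 and Hes1 of 6.86 to 8.59. Cdon, a hedgehog coreceptor, fell from 17.9 in both Blank libraries to 7.10 and 7.04, and Epha4, a receptor of ephrins, from 10.7 and 9.93 to 3.87 and 3.88 (-1.21 ± 0.20). The other members of the 10 largest falls were low: Gm14430 was at 5.37 and 6.26 in Blank and listed at 0 in both Control libraries, and its call was lost without any 1 library (adjusted p up to 0.148). Mirlet7b, a gene of a let-7 microRNA hairpin, and Tcte3 were listed at 0 in Control and at 1.33 to 3.06 in Blank. Gm15217, whose model overlaps Bmp4, was at 1.62 and 2.55 against 0.23 and 0.12, and Gprin3 was at 3.99 and 5.32 against 0.86 and 1.83. Gm14430, Mirlet7b, Tcte3 and Gm15217 passed the filter only through the Blank libraries. Gm15217 lost its call without Blank-2 (adjusted p = 0.0638), and Gprin3 without Blank-2 or Control-1 (adjusted p up to 0.152).

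Falls of abundant genes were smaller. Sptan1, the spectrin chain of the membrane skeleton, was at 129 and 125 FPKM in Blank and 74.1 and 69.1 in Control (-0.82 ± 0.12, adjusted p = 0.00212). Timp3, an inhibitor of metalloproteinases, was at 118 and 109 against 58.0 and 66.3 (-0.86 ± 0.13), a call lost without Blank-1 (adjusted p = 0.0529). Bcl2, an antiapoptotic protein, was at 15.1 and 14.1 against 7.56 and 8.93 (-0.76 ± 0.14), and was not called without Blank-1, Blank-2 or Control-1 (adjusted p up to 0.106). Spry1, a feedback inhibitor of growth factor signaling, fell from 28.4 and 24.4 to 13.8 and 13.3 (adjusted p = 0.0496), a call lost without any 1 library (adjusted p up to 0.305), while the immediate early gene Jun rose from 24.9 and 27.4 to 76.8 and 67.1 (1.42 ± 0.14).

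**Figure D5:**
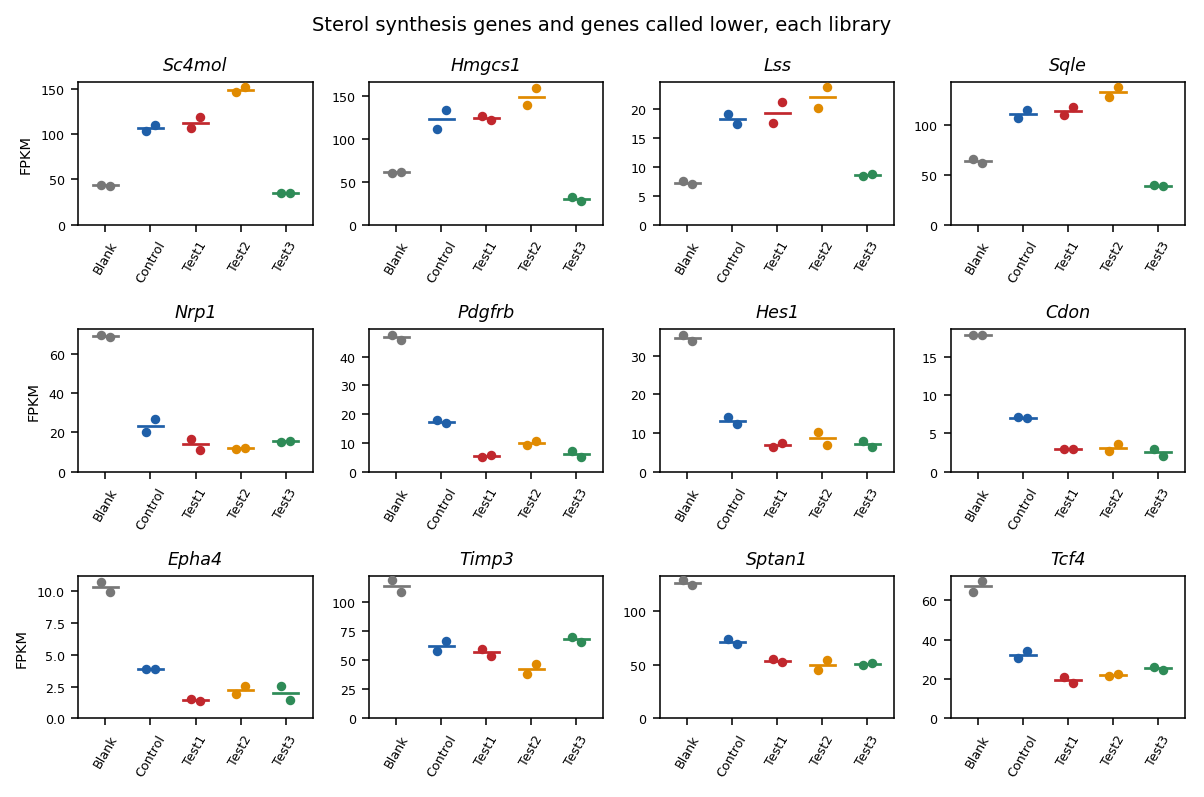
FPKM (y axis, from 0) of 4 sterol synthesis genes (Sc4mol, Hmgcs1, Lss and Sqle) and 8 genes that fell, in each library of the 5 label sets, with 1 point per library and a line at the mean of 2. The sterol genes are higher in Control than in Blank and low again in Test3. The genes that fell are lower in Control than in Blank without overlap, as was every gene called lower.

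Of 11 tested mammary luminal identity genes 5 rose, with a median of 0.56, and of 20 epithelial adhesion and keratin genes 2 rose and 1 fell, with a median of 0.06. Krt18 rose from 807 and 754 FPKM to 1776 and 1779 (1.19 ± 0.17, adjusted p = 0.00205) and its partner Krt8 from 564 and 526 to 966 and 992 (0.84 ± 0.15). The Krt8 call was lost without Blank-1 or Blank-2, while its difference stayed at 0.79 to 0.89 without 1 library at a time. Cdh1, the epithelial cadherin, was not called, at 11.2 and 13 against 11.9 and 11.7, nor was Vim (0.28 ± 0.18). Aldh1a3, an enzyme of retinoic acid synthesis, rose from 5.14 and 3.98 to 24.7 and 22.9, and Xdh, xanthine dehydrogenase, from 24.2 and 26.6 to 122 and 111. Ly6a (Sca-1) rose from 86.4 and 88.2 to 385 and 320.5 and Ly6c1 from 36.6 and 35.7 to 190.3 and 145. Tnc, a matrix glycoprotein, rose from 87.0 and 84.2 to 210 and 195 (1.23 ± 0.14), while Fn1 was not called (2202 and 2025 against 1934 and 1553). Mpeg1, a pore protein known from macrophages, rose from 0.34 and 0.27 to 9.13 and 8.88, with the filter passed only through Control, in libraries whose pan-leukocyte markers summed to 1.86 FPKM or less.

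Housekeeping lists showed no calls by limma. None of 77 ribosomal protein genes was called, with 0 below an unadjusted p of 0.05 and a median of 0.05. None of 69 nuclear-encoded oxidative phosphorylation genes was called, with 1 higher and 2 lower at an unadjusted p under 0.05 (9.39% and 9.43% of all tested genes) and a median of 0.15, and none of 27 NRF2 antioxidant genes, with 3 and 3. Glycolysis and hypoxia-responsive genes were mostly not called either, with 3 of 28 higher. Hk2, the inducible hexokinase, was at 11.2 and 11.8 FPKM in Blank and 38.5 and 37.7 in Control (1.64 ± 0.11), while Ldha was at 458 and 432 against 535 and 473 (0.18 ± 0.17).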

How the data were processed

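Sequencing was done by BGI (Illumina HiSeq). Bowtie alignment to mm10 is named in the study's methods and the submitters' processing notes. The authors deposited 1 table of FPKM with 2 decimals for 10 libraries. For the quantification program, annotation and read filters: not given in the sources used here. All 10 columns were used, with 0 left out. Symbols turned into dates by a spreadsheet (24) were restored, and 17113 of 17171 genes matched RefSeq (GRCm38.p6).

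Values were taken as log2(FPKM + 1) and fitted with limma 3.58.1 in R 4.3.3 (5 label sets as groups, two-sided, eBayes with its trend option, p-values adjusted by Benjamini-Hochberg). The 5 sets share 1 estimate of the spread, since 2 libraries per tag alone leave few residual degrees of freedom. An exact permutation test of 2 libraries against 2 cannot go below p = 0.333 and was not used for calls. The count methods named by the study need reads and were not run. Scripts ran in Python 3.11.15 with pandas 2.3.3, and the fit was tested on simulated data. The read estimate rests on 5571 genes of a single transcript length. FPKM gives no counts, so no counting intervals were computed.

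Members and lists (63) were chosen with earlier results of these data known. Named genes were the 10 largest rises and falls, fixed members of each list, at most 4 called members per list and direction, and the 5 called genes of highest level or FPKM difference. Other genes named, Irgm2 among them, were chosen after their values were seen. Alternatives covered pseudocount, filter, scaling, libraries in the fit, trend, replicate block, GC content and length, each library left out, threshold and promoter window. A few items are not reported here.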

Additional observations from a re-analysis of the deposited data

How the results depend on the processing

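Without 1 library at a time, total calls ranged from 333 to 604, calls higher from 303 to 456 and calls lower from 30 to 148, and 267 of the 509 rises and 22 of the 166 falls were called without each of the 4. With the GC content and length trend removed, 1015 genes were called in all and 287 lower. At an adjusted p under 0.01, 382 were called, 336 higher and 46 lower. With only the 4 Blank and Control libraries in the fit, 437 genes were called higher and 115 lower. With the replicate number as a block, 431 genes were called higher and 99 lower. The labels give the sets the same numbers. Whether these pair the libraries cannot be settled with only 2 pairs (r = 0.056 for Blank-1 with Control-1 over 11150 genes). The causes of these shifts were not tested. The share of calls that were higher was 75.4%, against 79.5% with median-centred libraries and 70.2% with quantile normalization. Uncalled values near 0 changed sign: Ifngr1 was at 0.03 with the GC and length trend removed, with or without the block, and Oasl1 at -0.027. Without 1 library at a time, Stat6 ranged from -0.18 to 0.13, Ifngr1 from -0.27 to 0.20, Cdh1 from -0.13 to 0.068 and Ifit1 from -0.043 to 0.30. No called gene named here changed sign. FPKM gives no read counts, which limits what can be said of low genes.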

Other observations

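Several genes outside the lists also rose. Apart from AA467197, all genes named here and in the next paragraph were chosen after their values were seen. Rnf19b, an E3 ubiquitin ligase, was at 29.7 and 31.3 FPKM in Blank and 268 and 258 in Control (3.07 ± 0.11, adjusted p = 6.41e-08, limma). Tubb3, a tubulin best known from neurons, rose from 2.28 and 2.50 to 35.4 and 32.1 (3.36 ± 0.15), and Ubd, the ubiquitin-like protein FAT10, from 1.71 and 1.87 to 19.9 and 24.2 (3.04 ± 0.17). Batf2, a transcription factor of the AP-1 type, rose from 0.42 and 0.37 to 16.3 and 9.82, and passed the filter only through Control. AA467197, named by the rule for its FPKM difference, rose from 81.4 and 81.7 to 609 and 758 and had means of 975 to 1128 in the test sets. Secreted factors were also among the rises: Fst (follistatin) went from 3.58 and 3.96 to 20.4 and 28.3, Nppb, a natriuretic peptide, from 13.8 and 14.7 to 64.9 and 75.3, and Sfrp1, a Wnt antagonist, from 47.2 and 48.3 to 141 and 135. In none of these genes did the tags overlap, which held for every gene called. Snora19, a short RNA inside Eif3a, was listed at 0 in both Blank libraries and in the test means, and at 7.69 and 8.0 in Control.

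The Notch feedback gene Nrarp fell from 26.0 and 27.8 FPKM to 16.3 and 11.9 (-0.90 ± 0.18, adjusted p = 0.0142, limma). The Notch ligand Jag1, tested only through its level in Blank, fell from 2.17 and 2.24 to 0.91 and 0.63. The receptor Notch1 rose from 6.56 and 6.17 to 17.5 and 11.3 (1.03 ± 0.22, adjusted p = 0.0212, limma). None of these 3 calls held without Blank-1 or Blank-2, Notch1 and Jag1 were also not called without Control-1, nor Nrarp and Jag1 without Control-2 (adjusted p up to 0.14 for Nrarp, 0.182 for Jag1 and 0.172 for Notch1). Tcf4, a transcription factor of the E protein family, fell from 64.2 and 69.7 to 30.5 and 34.2, Akap12, a scaffold of kinase A, from 33.1 and 35.1 to 13.4 and 15.3, and the adhesion molecule Ncam1 from 46.1 and 45.1 to 22.0 and 23.9. The Control libraries also differed from each other. Of the 509 genes that rose, Control-1 was above Control-2 in 311 (61.1%), against 53.6% of all tested genes.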
